A study of Bos taurus with 111 samples.

Results

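Skeletal muscle RNA was compared between efficient and inefficient Charolais (CH) steers at the end of the first high concentrate phase (H1). Feed efficiency was expressed as residual feed intake (RFI), the dry matter intake of an animal minus the intake predicted from its body weight and growth, so that a steer of low RFI (L-RFI) ate less than predicted and one of high RFI (H-RFI) ate more. The 18 libraries of CH steers labelled H1, of 111 in the series, were taken: 8 L-RFI and 10 H-RFI, each from a different steer. All were CH steers of one feeding study, and the CH steers of that study had a mean age of 283 d and a mean body weight of 395 kg at the start of the phase, offered the same concentrate (860 g/kg rolled barley and 60 g/kg soya bean meal) ad libitum with restricted grass silage. No animal was treated, and the classes are the extremes of a ranking within breed and diet over a measurement period of 70 d, so the comparison is observational. Each library came from 50 mg of a biopsy of M. longissimus thoracis et lumborum, the long muscle of the back.

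Skeletal muscle is a large consumer of energy, through contraction, ion pumping and the constant turnover of protein. Its fibres are multinucleated cells, and a biopsy also takes in blood, vessels, nerve endings, connective tissue, resident immune cells and the fat cells between fibres. Muscle RNA also responds within minutes to stretch, exercise and handling through immediate early genes, and over hours to hormones such as growth hormone and glucocorticoids.

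The number of genes that differed between L-RFI and H-RFI steers past the thresholds was 0 of 10596 tested (0.0%), where a gene had to differ by more than 1.5-fold with an adjusted p below 0.1 (Benjamini-Hochberg) in edgeR's quasi-likelihood test. At an unadjusted p-value under 0.05, 216 genes (2.04%) were counted, of which 89 (0.84%) were higher and 127 (1.2%) lower in L-RFI. Where no gene differs a share of 0.05 is expected on average, and the 216 genes lie below that share. Some other fits, given below, counted more genes. With size factors of the RLE type the same total split into 118 higher and 98 lower. The other tests run counted a handful: edgeR's exact test called 2 genes (0.0189%), NFKBIA higher and ENSBTAG00000021077 lower in L-RFI, both at an adjusted p of 0.0493, and DESeq2's Wald test called the same pair, both at an adjusted p of 0.0363. With each steer left out in turn, the exact test called NFKBIA in 8 of 18 fits and ENSBTAG00000021077 in 8 of 18. Limma voom with sample quality weights called 0, with 594 genes at an unadjusted p under 0.05.

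Differences were small over most of the transcriptome. The log2 fold change, given throughout as L-RFI minus H-RFI, ran from -0.38 at the 5th percentile of genes to 0.25 at the 95th, with a median of -0.04. Of all genes tested, 219 (2.07%) differed by more than 1.5-fold in either direction. The biological coefficient of variation between steers of a class was 33.9%. Of the 67 genes chosen for naming, 43 had a log2 fold change that moved by over 1.5 times when some single steer was left out.

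**Figure D1:**
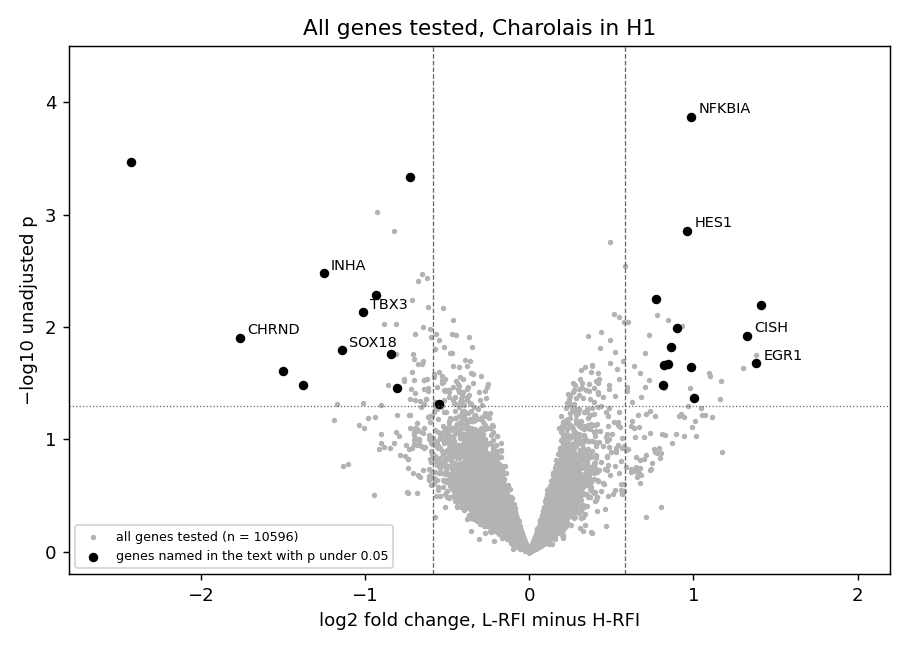
Log2 fold change (x axis, L-RFI minus H-RFI) against −log10 of the unadjusted p of edgeR's quasi-likelihood test (y axis) for the 10596 genes tested. Dashed lines mark a 1.5-fold change and the dotted line a p of 0.05. NFKBIA stands highest, and no point passes the adjusted threshold.

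Gene names were at hand for 129 of the genes tested, those that the study's own lists of differing genes pair with Ensembl identifiers. Of the 216 genes at a p under 0.05, 21 had a name, and 17 of these names come from the study's list for this same comparison, which was drawn up on these samples and is not independent evidence of any direction. The 32 tested genes on that list had a median log2 fold change of 0.85, with 18 higher and 14 lower. The 97 named genes that come from the study's other comparisons only had a median of -0.20, beside -0.04 over all genes. Of these, 24 were higher and 73 lower, while 59.5% of all genes were lower. Some of those comparisons share CH steers with this one, so this set is not fully independent either.

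Library depth differed between the classes. Reads counted on genes ranged from 8301679 to 39675940 in L-RFI with a median of 13500619, and from 11186086 to 52552057 in H-RFI with a median of 26941923. In log10 units the difference of the means was -0.23, with p = 0.0374 in a two-sided exact permutation test over 43758 groupings and 0.150 after adjustment over 4 such tests of library properties. On thinned counts, with 8301679 reads per library, genes with at least 1 CPM (counts per 1000000) numbered 10347 ± 485 (SD, n = 8) in L-RFI and 10362 ± 648 (SD, n = 10) in H-RFI, with p = 0.956 in the exact permutation test. The share of counts held by the 10 most abundant genes, also thinned, was 32.9% ± 4.29 (SD, n = 8) and 33.3% ± 5.63 (SD, n = 10), with an exact permutation p of 0.870.

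The main axis of variation ran across both classes. The first principal component held 47.2% of the variance of log2 CPM and the second 8.94%. Of the reads mapped to a single place in the genome, 8.71% to 18.7% per library fell on no annotated gene of the counted strand. The widest gap in that share, from 11.9% to 13.8%, parted 8 libraries with a low share (L-RFI replicates 1, 6 and 8, and H-RFI replicates 2, 5, 6, 7 and 9) from 10 with a high share. Every low-share library had a positive score on the first component and every high-share library a negative one. The low-share libraries had 9601 to 10469 genes at 1 CPM or more, and the high-share libraries 10491 to 11256. Over genes, the median share of variance that went with the RFI class was 1.58%, and that with the share of reads on no gene was 34.8%. With 18 libraries an arbitrary term takes 5.88%, which is a mean and not a median. The share itself was 14.0% ± 2.96 (SD, n = 8) in L-RFI and 13.8% ± 3.70 (SD, n = 10) in H-RFI, with an exact permutation p of 0.889. Its part in the results that follow was measured by fitting it as a covariate and by fitting each set of libraries alone.

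**Figure D2:**
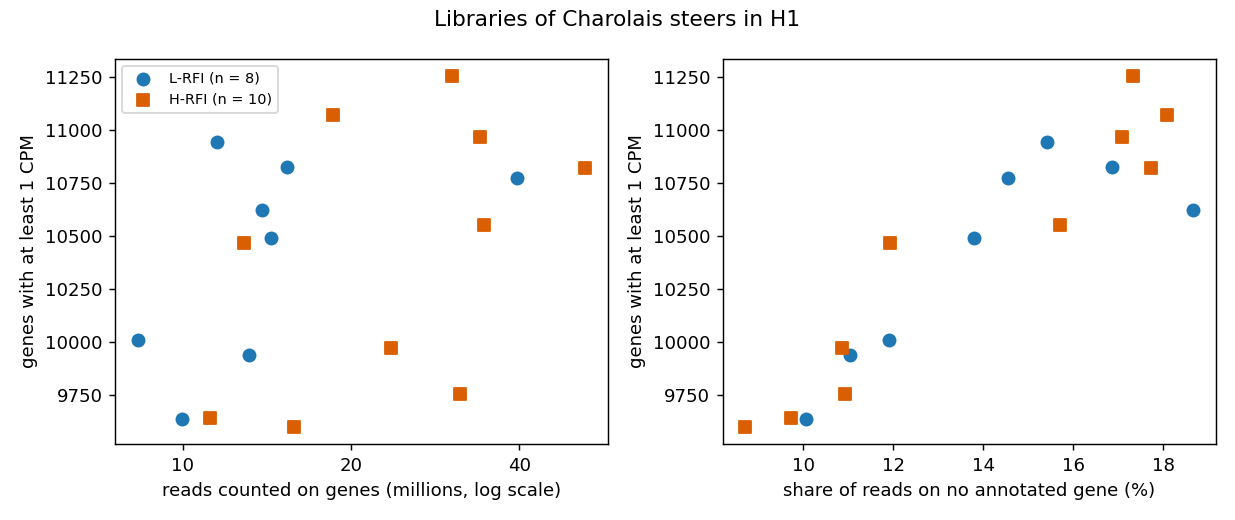
Genes with at least 1 CPM in each library (y axes) against the reads counted on genes (left, log scale) and the share of reads on no annotated gene (right). Circles are the 8 L-RFI and squares the 10 H-RFI steers. Both classes lie on both sides of the gap between 11.9% and 13.8%, while most H-RFI libraries are deeper.

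NFKBIA (ENSBTAG00000016683), the gene of the inhibitor IκBα that holds NF-κB in the cytoplasm and is itself an NF-κB target, had the smallest p of all genes. Its level was 20.3 CPM at the lowest, 26.6 at the median and 44.5 at the highest among L-RFI steers, against 8.17, 12.8 and 24.5 among H-RFI steers. All 8 L-RFI steers stood above the H-RFI median, and 9 of 10 H-RFI steers stood below the lowest L-RFI steer, the exception being H-RFI replicate 1. The log2 fold change was 0.99 (SE 0.21), with an unadjusted p of 0.000135 and an adjusted p of 0.9995 in edgeR's quasi-likelihood test. Its fold change was 0.98 on the log2 scale among the high-share and 1.01 among the low-share libraries alone, and 0.94 with log10 depth as a covariate. MAP3K14, the kinase NIK of the noncanonical NF-κB pathway, was the other named member of the 16 listed NF-κB genes and had a log2 fold change of -0.08 (SE 0.19).

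HES1 (ENSBTAG00000000569), a repressor induced by Notch signalling, had 8.34, 15.8 and 33.8 CPM in L-RFI (lowest, median and highest) and 7.16, 9.57 and 16.0 CPM in H-RFI. The classes overlapped: 4 L-RFI steers (replicates 1, 2, 4 and 5) lay above every H-RFI steer, while the other L-RFI steers lay within the H-RFI range. Its difference on the log2 scale was 0.96 (SE 0.26), with an unadjusted p of 0.00140, and was 0.98 and 0.93 in the high-share and low-share libraries.

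CISH (ENSBTAG00000022622), a feedback inhibitor of cytokine and growth hormone signalling that STAT5 induces, showed one of the widest separations of the medians. It had 4.14, 17.9 and 34.9 CPM in L-RFI against 1.18, 4.19 and 27.2 CPM in H-RFI, and 7 of 8 L-RFI steers stood above the H-RFI median. H-RFI replicate 7 was the exception on the other side, at the highest H-RFI value. On the log2 scale the fold change was 1.33 (SE 0.48; unadjusted p of 0.0120), and it was 1.85 without that steer. Without L-RFI replicate 6 it was 1.14, and with log10 depth as a covariate 1.12 (SE 0.56; unadjusted p of 0.0601). PIM1, a kinase gene also induced by STAT5 and the only other named gene of the 18 listed for the growth hormone axis, had 0.02 (SE 0.24).

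INHA (ENSBTAG00000009972), which encodes the alpha subunit of inhibin, an antagonist of activin, was on the other side. It had 1.08, 2.39 and 6.50 CPM in L-RFI against 1.90, 5.38 and 13.9 CPM in H-RFI, and 7 of 8 L-RFI steers lay below the H-RFI median, with L-RFI replicate 8 above it. On the log2 scale the fold change was -1.25 (SE 0.38; unadjusted p of 0.00333), and was -1.52 and -0.81 in the high-share and low-share libraries. TBX3, a T-box repressor of development, followed with -1.01 (SE 0.34): its 8 L-RFI steers (0.415 to 1.69 CPM) were all below the H-RFI median of 2.13 CPM, and 6 of 10 H-RFI steers exceeded every L-RFI steer. NTN4, a netrin of basement membranes, had -0.93 (SE 0.30) at 0.513 to 1.82 CPM in L-RFI and 1.13 to 4.30 CPM in H-RFI, with 6 of 10 H-RFI steers above every L-RFI steer.

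**Figure D3:**
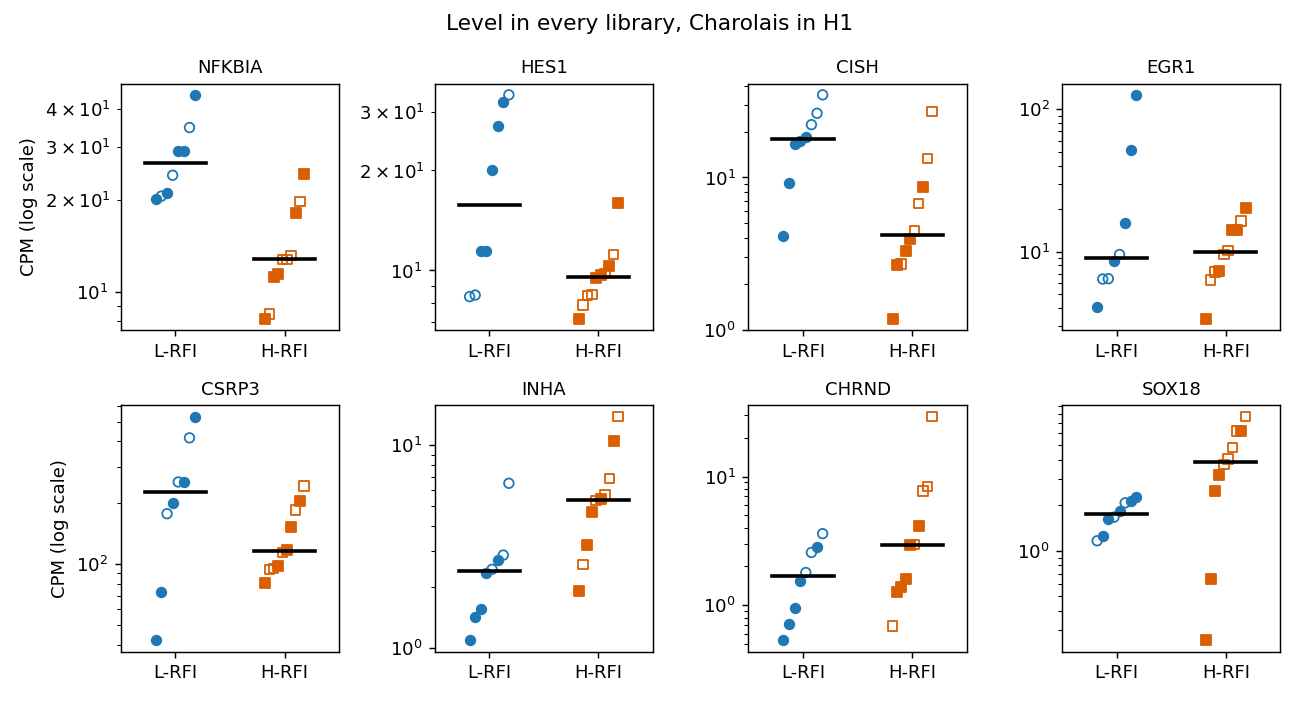
CPM on a log scale for 8 genes, with 1 point per steer (circles, L-RFI; squares, H-RFI) and a bar at the class median. Filled points are libraries with a high share of reads on no gene and open points those with a low share. NFKBIA overlaps through a single H-RFI steer, at 24.5 CPM, while EGR1 has similar medians (9.03 and 9.86 CPM) and 2 high L-RFI steers.

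The remaining named genes with the smallest p that were higher in L-RFI have unlike roles. MICAL2, an oxidase that disassembles nuclear actin and activates SRF, had a log2 fold change of 0.90 (SE 0.32), with 3 L-RFI steers above every H-RFI steer. ARRDC2, an arrestin-domain gene, had 0.98 (SE 0.40), with 7 of 8 L-RFI steers above the H-RFI median of 12.8 CPM, and 0.60 without L-RFI replicate 5. NMRAL1, a sensor of NADPH, had 0.84 (SE 0.34): it ranged from 7.71 to 17.2 CPM in L-RFI and from 0.762 to 12.2 CPM in H-RFI, and 5 L-RFI steers lay above every H-RFI steer. On the lower side, SDS, an enzyme that breaks down serine, had -1.50 (SE 0.62), although its medians were close at 3.12 CPM in L-RFI and 3.02 CPM in H-RFI. H-RFI replicates 7 and 9 had the highest SDS values, and without replicate 7 the log2 fold change was -0.87.

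Immediate early genes did not lean one way. Of 27 listed, 14 were named and tested, 8 were higher and 6 lower in L-RFI, and the 2 at a p under 0.05 (EGR1 and HES1) were both higher, beside 0.84% of all genes. Both come from the study's list for this comparison and so were chosen on these samples, which makes that count no independent evidence. Of the 10 genes not on that list, 6 were higher and 4 lower. Their median log2 fold change was 0.05, against -0.04 for all genes. EGR1, a transcription factor induced by growth signals and contraction, had 4.08, 9.03 and 126 CPM in L-RFI and 3.38, 9.86 and 20.2 CPM in H-RFI. Its high mean in L-RFI came from replicates 3 and 4, and 5 of 8 L-RFI steers lay below the H-RFI median. Without L-RFI replicate 3 the log2 fold change was 0.43, against 1.38 (SE 0.56) with all steers. NR4A3, an orphan nuclear receptor induced by exercise, had -1.10 (SE 0.77) and BTG2, an antiproliferative gene, -0.78 (SE 0.51). Both depended on single steers: NR4A3 had -0.48 without H-RFI replicate 8 and -1.81 without L-RFI replicate 5, and BTG2 had -0.30 without H-RFI replicate 2 and -1.20 without L-RFI replicate 3. ZFP36, which destabilises cytokine mRNAs, had 0.31 (SE 0.17).

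The set also divided by the share of reads on no gene. In the high-share libraries 12 of 14 immediate early genes were higher in L-RFI, with a median of 0.67, and in the low-share libraries 2 of 13, with a median of -0.41. The medians over all genes in these sets were 0.0015 and 0.00045. In the fit of both sets together, the median of the immediate early genes was -0.21 without L-RFI replicate 3, a high-share library, against 0.05. The difference between the sets of libraries was not tested.

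Genes of plasma proteins, which hepatocytes make and secrete, were higher in L-RFI on average. Of 34 listed, 10 were named and tested, and all 10 were higher, beside 40.5% of all genes, with a median log2 fold change of 1.01. Of these 10, 9 come from the study's list for this comparison and so were chosen on these samples. Only AHSG passed a p of 0.05. With the share of reads on no gene as a covariate 9 of 10 passed it (3.86% of all genes did). Those 9 are the genes from the study's list, so that count is no independent evidence. In the high-share libraries alone 7 passed (12.9% of all genes), and in the low-share libraries alone 0. Without L-RFI replicate 2 the median log2 fold change was 0.64. The 1 gene not on that list is ALB, the gene of albumin, with a log2 fold change of 0.56 (SE 0.51), and 0.29 without L-RFI replicate 1. In a bulk biopsy, fewer cells of a type and less RNA per cell cannot be told apart. The source of these reads was not tested.

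The spread was between individual steers. ALB had 14.9, 81.9 and 221 CPM in L-RFI and 19.8, 54.7 and 187 CPM in H-RFI, with a summed level of the 10 genes of 26.8 to 397 CPM in L-RFI and 31.8 to 283 CPM in H-RFI. L-RFI replicates 1, 2 and 8 were the highest 3 of the 18 libraries in 9 of 10 genes, and L-RFI replicate 7 the lowest L-RFI library in all 10. Among H-RFI steers replicate 6 was the highest in 8 of 10 genes. The medians were closer than the means, as in FGB, the beta chain of fibrinogen, at 13.3 CPM in L-RFI and 12.3 CPM in H-RFI.

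AHSG, which encodes fetuin-A, had 1.31, 5.10 and 16.0 CPM in L-RFI against 0.729, 3.09 and 8.55 CPM in H-RFI. Its log2 fold change was 1.00 (SE 0.47; unadjusted p of 0.0429), and 0.62 without L-RFI replicate 2. The haem scavenger HPX had 1.07 (SE 0.54), C5 of the complement cascade 1.11 (SE 0.57), the acute phase protein ORM1 1.05 (SE 0.53), FGB 1.04 (SE 0.51) and the copper carrier CP 1.01 (SE 0.53). The plasmin precursor PLG had 0.97 (SE 0.47), the other fibrinogen chain FGG 0.94 (SE 0.54) and the adhesion protein VTN 0.92 (SE 0.46). Without L-RFI replicate 2 PLG and CP came to 0.58 each, HPX to 0.65, C5 to 0.69 and FGG to 0.62. In the high-share libraries the median of the 10 genes was 1.40 and in the low-share libraries 0.92.

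**Figure D4:**
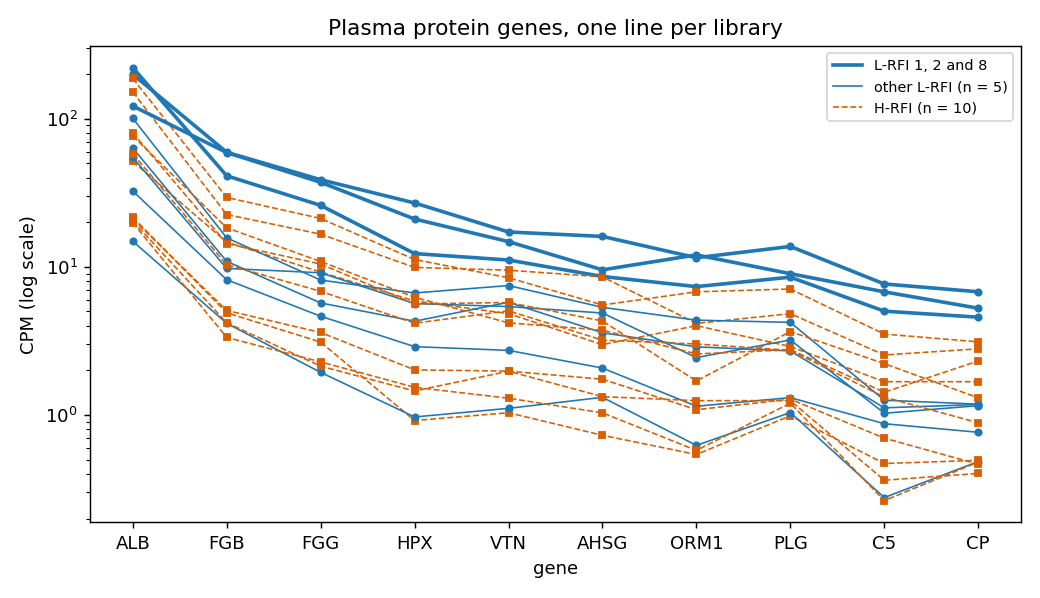
CPM on a log scale for the 10 plasma protein genes, 1 line per steer (solid, L-RFI; dashed, H-RFI). The lines run nearly parallel, and L-RFI replicates 1, 2 and 8, drawn thick, lie at the top in 9 of 10 genes, while L-RFI replicate 7 lies among the lowest.

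Genes of slow, cardiac and developmental sarcomeres, which build the contractile apparatus of slow, heart or immature fibres, gave 1 higher and 6 lower of 7 named and tested (20 listed), with a median of -0.34. CSRP3, a scaffold of the Z-disc and a regulator of myogenesis, was the higher one. It had 42.1, 227 and 530 CPM in L-RFI against 80.9, 115 and 242 CPM in H-RFI, with 4 L-RFI steers above every H-RFI steer and replicates 2 and 5 below every one of them. The log2 fold change was 0.81 (SE 0.36; unadjusted p of 0.0329), and 0.50 with log10 depth as a covariate. TNNT2, the cardiac troponin T that immature muscle also makes, had medians of 1.26 and 1.46 CPM, and its log2 fold change of -1.38 (SE 0.60) was -0.21 without H-RFI replicate 2, which stood at 22.0 CPM. The same steer held the highest MYH8, the perinatal myosin, whose log2 fold change was -0.74 (SE 0.69). MYH6, the alpha cardiac myosin heavy chain, was well expressed at 106 to 483 CPM in L-RFI and 121 to 670 CPM in H-RFI, with -0.26 (SE 0.31), and the cardiac actin ACTC1 had -0.45 (SE 0.46). MYH4, the fast myosin IIb, ran from 2.29 to 201 CPM in L-RFI and from 1.93 to 132 CPM in H-RFI, and had -0.31 (SE 1.02). The 10 usual markers of muscle (ACTA1, CKM and others) had no name paired with an identifier, so the tissue was checked only by these sarcomere genes and by MT-CO3.

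CHRND (ENSBTAG00000011390), the delta subunit of the muscle acetylcholine receptor, which muscle raises when it loses its nerve supply, was lower in L-RFI. It had 0.531, 1.67 and 3.59 CPM in L-RFI and 0.685, 2.95 and 29.3 CPM in H-RFI. The classes overlapped, with 4 of 10 H-RFI steers above every L-RFI steer and replicate 9 far above the rest. The log2 fold change was -1.76 (SE 0.65; unadjusted p of 0.0124), -0.94 without H-RFI replicate 9 and -2.60 with log10 depth as a covariate. The other named genes of 19 listed for the junction and denervation were ACHE (acetylcholinesterase), with -0.35 (SE 0.51), and GADD45A (a stress gene that denervation also raises), with 0.21 (SE 0.33).

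Of 24 adipocyte and lipogenesis genes, 7 were named and tested, 1 was higher and 6 lower in L-RFI, with a median of -0.51, and none was at a p under 0.05. CIDEC, which enlarges lipid droplets, had 0.436, 0.891 and 6.003 CPM in L-RFI and 0.736, 2.58 and 7.23 CPM in H-RFI. In 6 of 8 L-RFI steers it lay below the H-RFI median, and its log2 fold change was -1.004 (SE 0.54; unadjusted p of 0.0793). CIDEC passed the filter mostly through H-RFI libraries, the class in which it was higher, so its p and direction are description only. FABP4, a fatty acid carrier of fat cells, had -0.74 (SE 0.53), TRARG1, which regulates glucose transporter traffic, -0.56 (SE 0.49), and FASN, which makes fatty acids, -0.29 (SE 0.24). The fasting genes divided: PDK4, which slows glucose oxidation, had 0.34 (SE 0.60), with -0.27 in the high-share and 1.67 in the low-share libraries (unadjusted p of 0.723 and 0.00200), and DDIT4, an inhibitor of mTOR complex 1, 0.26 (SE 0.27), while FOXO1, a driver of fasting and atrophy genes, had -0.11 (SE 0.24). The lipid droplet protein PLIN5 had -0.05 (SE 0.25) and the fatty acid transporter SLC27A6 -0.22 (SE 0.39).

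NDUFA3, a subunit of complex I and the only named one of 38 listed, had 10.7, 25.5 and 34.0 CPM in L-RFI and 16.3, 36.0 and 94.2 CPM in H-RFI. All 8 L-RFI steers lay below the H-RFI median and 6 of 10 H-RFI steers lay above every L-RFI steer. Its log2 fold change of -0.84 (SE 0.33; unadjusted p of 0.0173) was -1.06 in the low-share and -0.15 in the high-share libraries. Both named transcripts of the mitochondrial genome were also lower, MT-ND3 by -0.68 (SE 0.41) and MT-CO3, which held on average 2.25% of all counts, by -0.45 (SE 0.39). With log10 depth as a covariate they had -0.99 and -0.84 (unadjusted p of 0.0143 and 0.0376), and without H-RFI replicate 5 -0.26 and -0.19. Both were higher in the high-share libraries (0.17 and 0.11) and with limma voom weights (0.12 and 0.16).

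Immune cell markers were mostly lower in L-RFI. Of 5 lymphoid genes named and tested (17 listed), 5 were lower, with a median of -0.46. In the high-share libraries alone 2 of 5 were higher, and in the low-share libraries alone 0 of 4. ZAP70, the kinase of the T cell receptor, had -0.80 (SE 0.36; unadjusted p of 0.0351), at 0.358 to 1.48 CPM in L-RFI and 0.301 to 2.17 CPM in H-RFI. PTPRC (CD45, on all leukocytes) had -0.50 (SE 0.41), CD3E (a chain of the T cell receptor complex) -0.36 (SE 0.39) and SPN (a leukocyte sialoprotein) -0.46 (SE 0.42). These genes are near 1 CPM, and 59.5% of all genes were lower. ZAP70 and SPN passed the filter of at least 1 CPM in 50% of libraries mostly through H-RFI libraries, the class in which they were higher. The count of 5 lower genes is therefore description only. ZAP70 was tested in only 9 of 18 fits that left out 1 steer, so its p and direction are also description only.

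Of 7 myeloid genes (19 listed), 2 were higher and 5 lower. PLEK, a protein kinase C substrate of platelets and leukocytes, was higher with 0.86 (SE 0.33; unadjusted p of 0.0151), 7 of 10 H-RFI steers lying below the lowest L-RFI steer. Without L-RFI replicate 5, at 9.23 CPM, its log2 fold change was 0.45, and it was 1.44 in the high-share but 0.15 in the low-share libraries. CSF3R, the receptor of a granulocyte growth factor, had -0.94 (SE 0.48), CD53 (a leukocyte tetraspanin) -0.59 (SE 0.38) and SRGN (a proteoglycan of granules) -0.48 (SE 0.32). CD53 also passed the filter mostly through H-RFI libraries, and was tested in only 9 of 18 fits that left out 1 steer. The summed level of the 7 genes was 10.4 to 46.4 CPM in L-RFI and 11.1 to 32.6 CPM in H-RFI.

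HLA-DQA2, a class II antigen presenting chain whose gene family has near-identical copies, so that its counts are uncertain, had -1.19 (SE 0.62), with 0 reads in L-RFI replicates 5 and 6. Of the 5 named interferon-stimulated genes (30 listed), 4 were lower. MX1, an antiviral GTPase, had -0.55 (SE 0.26; unadjusted p of 0.0483), CASP4, an inflammatory caspase, -0.31 (SE 0.29), UBD, a ubiquitin-like modifier, -0.19 (SE 0.44) and IDO1, which degrades tryptophan, -0.13 (SE 0.45). UBD was close to the filter, and was tested in only 9 of 18 fits that left out 1 steer. Markers of vessels went apart: SOX18, a transcription factor of endothelium, had -1.14 (SE 0.44), with 8 of 10 H-RFI steers above every L-RFI steer (1.16 to 2.28 CPM) and H-RFI replicates 1 and 10 below them, while APOLD1, an early response gene of endothelium, had 0.82 (SE 0.33). POSTN, a matrix protein of fibroblasts, had -0.35 (SE 0.42).

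Among genes without a name, ENSBTAG00000021077 had the largest difference of those with a small p, -2.42 (SE 0.57; unadjusted p of 0.000339). It had 0.0588, 0.384 and 1.34 CPM in L-RFI and 0.803, 1.84 and 9.08 CPM in H-RFI. In 3 of 8 L-RFI libraries it had fewer than 3 reads, so the fold change rests in part on values under the floor of 3 counts. Among L-RFI libraries only replicate 1 reached 1 CPM before TMM normalization, so ENSBTAG00000021077 passed the filter through the class in which it was higher. Its p-values, those of the exact test and DESeq2 included, are therefore description only. ENSBTAG00000008291 was the 1 gene of 10596 (0.00944%) in which the classes did not overlap, at 0.717 to 1.64 CPM in L-RFI and 1.69 to 2.46 CPM in H-RFI, with a log2 fold change of -0.72 (SE 0.17). On the higher side, ENSBTAG00000002912 had 1.41 (SE 0.47) and ENSBTAG00000011585 had 0.77 (SE 0.25). In each of these 2 genes 5 L-RFI steers lay above every H-RFI steer. Both passed the filter mostly through L-RFI libraries, the class in which they were higher, so these values are also description only.

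Neither adjustment for depth gave a call, and they moved the number of genes at a low p in opposite directions. With log10 depth as a covariate, 861 genes (8.13%) had an unadjusted p under 0.05, 323 higher (3.05%) and 538 lower (5.08%), and the number past the thresholds was 0, the lowest adjusted p being 0.277. With the share of reads on no gene as a covariate the corresponding number was 409 (3.86%), and among the high-share libraries alone it was 1407 of 10928 (12.9%), again with 0 genes past the thresholds. Among the low-share libraries alone it was 377 of 9996 (3.77%) and 0. When counts were thinned to the depth of the shallowest library, 197 genes had a p under 0.05, against 216 without thinning, and 0 passed. Where no gene differs a share of 0.05 is expected on average. How far that share scatters when genes vary together was not tested.

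**Figure D5:**
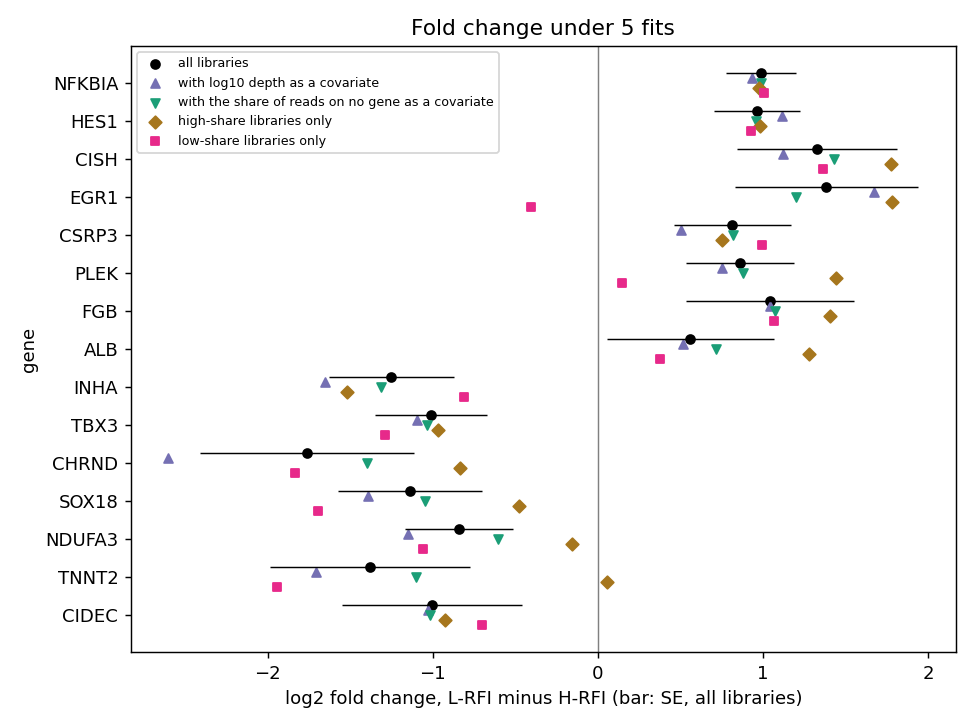
Log2 fold change (x axis, L-RFI minus H-RFI) of 15 named genes under 5 fits, with the SE of the fit on all libraries as a bar. NFKBIA and HES1 lie near 1 in every fit, whereas EGR1 and TNNT2 change sign in one set of libraries (-0.40 in the low-share and 0.055 in the high-share libraries).

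The same contrast was set beside Holstein-Friesian (HF) steers in H1 (9 L-RFI and 11 H-RFI) and CH steers in the second high concentrate phase, H2 (7 L-RFI and 7 H-RFI, of which 6 had also been sampled in H1), to ask whether the RFI effect differed by breed or phase. The HF steers were on average older and lighter than the CH steers at the start of H1, and CH steers were older in H2. Breed and phase therefore cannot be told apart from age and body weight. Of the 6 steers in both phases 3 had changed class, 1 from L-RFI to H-RFI and 2 from H-RFI to L-RFI. In edgeR's test of the difference of the effects, 0 of 10695 genes (0.0%) differed from HF-H1 and 0 of 10317 (0.0%) from CH-H2 past the thresholds, with 180 (1.68%) and 142 (1.38%) at an unadjusted p under 0.05. For NFKBIA the log2 fold change was -0.24 in HF-H1 and 0.26 in CH-H2, beside 0.99 in CH-H1. NFKBIA was picked for its p in CH-H1 and is on the study's CH-H1 list, so no test of its difference is given. HES1 had -0.17 and -0.08 in those groups, CHRND 0.95 and 0.08, and MT-CO3 1.05 and 0.15. TBX3 was lower in all 3 groups (-1.01, -0.51 and -1.03), as was CIDEC (-1.004, -1.09 and -2.16). HES1, CHRND, TBX3 and CIDEC are also on the study's CH-H1 list, so their CH-H1 values were favoured by that choice.

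Plasma protein genes had a median of 0.29 in HF-H1, where 10 of 10 were higher, and of -0.94 in CH-H2, where 0 of 10 were higher. L-RFI replicate 1, one of the 3 libraries highest in these genes, came from the steer that was H-RFI in H2. The 9 genes from the study's CH-H1 list were chosen on these samples, so no test of their difference between phases is given. ALB, which was not, had a difference of 1.54 (SE 0.79) from CH-H2, with an unadjusted p of 0.0591 and an adjusted p of 0.9999. Adipocyte and lipogenesis genes had medians of -1.23 and -2.16 in HF-H1 and CH-H2, beside -0.51 in CH-H1. The test does not show that the effects were alike.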

How the data were processed

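RNA was isolated from biopsies and sequenced with stranded mRNA libraries. The authors aligned trimmed reads with STAR 2.5.1 and counted them on Ensembl genes, and deposited raw counts per gene, per library and strand, neither normalized nor filtered. The submitters' processing notes name build UMD3.1, the paper another, so no positions are printed. Reverse-strand counts of 24616 genes were used (98.5% to 99.2% of stranded counts). No library of these 18 had under 1000000 counts. Genes with at least 1 CPM in 50% of libraries were kept, and edgeR 4.0.16 quasi-likelihood tests with TMM factors were run in R 4.3.3. Levels are TMM-normalized CPM. The floor is 3 counts, and covers counting error only.

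Alternatives were DESeq2 1.42.0, limma 3.58.1, exact tests, other size factors, filters and covariates, and leaving out each steer. The tests were tested on simulated data. Members, gene lists and the split by share of reads on no gene were chosen with earlier results of these data known. Genes were named by rule: those past the thresholds, 12 per direction with the smallest p above 1.5-fold, 2 per direction without a symbol, up to 4 per list, and study-named and abundant genes. All plasma protein genes are given. SPX, named by the study, was not tested. Identifiers of abundant genes without a symbol, and promoter motifs, which need sequence, are not given.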

Additional observations from a re-analysis of the deposited data

Results flagged for a closer look

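In 8 of 144 checks of a class of 8 or 10 steers, 1 steer stood further from its nearest neighbour than Dixon's 95% critical value allows, and chance gives about 1 in 20. Values of genes are log2(CPM + 0.5). L-RFI replicate 8 had the lowest TBX3 of its class at -0.13, and it also had the highest share of unmapped reads (4.86%) and of reads mapped to several places (11.4%). L-RFI replicate 5 had the highest PLEK at 3.28. L-RFI replicate 2 had the highest MYH4, the fast myosin IIb, at 7.66. H-RFI replicate 2 had the highest TNNT2 at 4.49 and the highest FOXO1 at 2.70 of its class, and H-RFI replicate 10 the lowest PLIN5 at 2.39.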

How the results depend on the processing

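The count of genes past the thresholds was 0 in the quasi-likelihood fits with every steer left out in turn, and 2 with edgeR's exact test and 2 with DESeq2. Over fits that left out 1 steer, the exact test included, it ranged from 0 to 3, and the count of genes lower at an unadjusted p under 0.05 from 67 to 163. The higher and lower counts were 279 and 315 with limma voom weights, 320 and 360 with no filter on low counts, 323 and 538 with log10 depth as a covariate, 38 and 43 in one model of all libraries, 201 and 208 with the share of reads on no gene as a covariate, 230 and 285 with both covariates, 654 and 753 in the high-share libraries alone, and 173 and 204 in the low-share libraries alone. DESeq2 counted 154 higher. The cause of these shifts was not tested.

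The quasi-likelihood test called 0 genes, so the changes of sign listed here are of genes it did not call, given as log2 fold changes. With limma voom weights MT-ND3 had 0.12, MT-CO3 0.16, MYH6 0.0717, ACHE 0.12, GADD45A -0.11, FOXO1 0.00301, MYH4 0.47, PLIN5 0.12 and PIM1 -0.16. With log10 depth SLC27A6 had 0.47, IDO1 0.35 and PIM1 -0.12, and with both covariates GADD45A had -0.060, SLC27A6 0.17, UBD 0.16, PLIN5 0.085 and PIM1 -0.22. In the high-share libraries TNNT2 had 0.055, MT-ND3 0.17, MT-CO3 0.11, SPN 0.061, MYH8 0.78, DDIT4 -0.066, ACHE 0.34, GADD45A -0.048, PDK4 -0.27, FOXO1 0.045, UBD 0.064, MYH4 0.50, PLIN5 0.24 and PIM1 -0.066. In the low-share libraries EGR1 had -0.40 and SLC27A6 0.10. Leaving out 1 steer moved MYH8 from -1.93 to 0.0092, ACHE from -0.54 to 0.18, PDK4 from -0.36 to 0.68, FOXO1 from -0.30 to 0.053, MAP3K14 from -0.22 to 0.0097, MYH4 from -3.08 to 0.18, IDO1 from -0.67 to 0.25, PLIN5 from -0.20 to 0.055 and PIM1 from -0.089 to 0.20.

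The median of the junction and denervation genes was -0.98 with log10 depth and -1.02 with both covariates, against -0.35, and that of the endothelial markers was -0.78 in the low-share libraries, against -0.16. On a linear scale the depth difference was -10694000 reads, with an exact permutation p of 0.0679. In the replicate block by steer, which pairs the steers sampled in both CH-H1 and CH-H2, 0 genes differed in effect and 141 had an unadjusted p under 0.05. Keeping libraries under 1000000 counts left the comparison itself as it was, since it has none. Genes near 1 CPM rest on few reads in the shallowest libraries, where 3 counts are 0.361 CPM.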
